A study of Rattus norvegicus with 12 samples.

Results

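The genes described here belong to the unfolded protein response and the integrated stress response, 38 genes chosen by symbol, followed in cultured newborn rat ventricular cardiomyocytes after siRNA against Btg1, Btg2 or both. The series' tables hold 17419 genes, 37 of the 38 among them, and all 37 passed the filter on low counts that left 12535 genes to test. Derl2 was not analysed here. The list was read as 4 roles, with 14 genes of chaperones and folding, 7 of ER-associated degradation, 8 sensors and transcription factors and 9 targets of the transcription factor ATF4.

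All cultures were primary, wild-type cells of Sprague-Dawley rats aged P0, enriched for cardiomyocytes after fibroblasts had been separated, and every culture received 20 nM of siRNA in total for 48 h. Double knockdowns received 10 nM siBtg1 with 10 nM siBtg2. Btg1 knockdowns received 10 nM siBtg1 with 10 nM siScramble, Btg2 knockdowns 10 nM siBtg2 with 10 nM siScramble, and scramble cultures 20 nM siScramble. Each of the 4 groups had 3 libraries, and nothing in the labels says that they are independent cultures or litters. The p-values therefore speak of the spread among these libraries, part or all of which may be technical. BTG1 and BTG2 are related proteins that recruit the CCR4-NOT deadenylase to messenger RNA and restrain cell division.

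The endoplasmic reticulum (ER) folds secreted and membrane proteins with chaperones such as BiP, and when unfolded protein builds up the sensors IRE1, PERK and ATF6 signal to the nucleus. IRE1 splices the Xbp1 transcript and ATF6 is cut to release a transcription factor, and XBP1 and ATF6 raise chaperone and degradation genes. PERK and GCN2 phosphorylate eIF2, which slows translation in general but favours translation of ATF4, and ATF4 raises genes of amino acid supply together with CHOP and TRIB3. In heart muscle the ER-derived sarcoplasmic reticulum also stores the calcium of each beat, and calreticulin buffers calcium in the ER.

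The factors above bind short promoter elements, and matches to these elements are shown for the genes of the list. They do not mark every known target: the XBP1 target gene Dnajb9 had none. Promoters were RefSeq's for assembly GRCr8, 250 bases before to 50 after each annotated start, and 32 of the 38 genes had an entry by symbol (Pdia3, Pdia6, Manf, Derl1, Ern1 and Atf6 had none). The ER stress response element (ERSE, searched as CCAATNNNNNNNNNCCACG) was in 8 of these 32 promoters and in 22 of all 33469 promoters of this length (0.0657%). The shorter ERSE-II (ATTGGNCCACG) was in 3 of 32 and in 0.0508% of all, the core of the UPR element (TGACGTG) in 2 of 32 and in 1.81%, and the core of the C/EBP-ATF composite element that ATF4 binds (TGATGNAA) in 3 of 32 and in 3.98%. Both strands were searched. These genes are known targets, so the shares describe the list and are no result of the cultures, and a match is not shown to be a used site.

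The ERSE matches are printed with their CCAAT and CCACG boxes in capitals, each 5′ to 3′ on the strand that reads CCAAT first, with its position counted from the annotated start.
Hspa5 (chr3:38452973-38452991, + strand, -43 to -25 from the start): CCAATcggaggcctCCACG
Hsp90b1 (chr7:23012451-23012469, - strand, -176 to -158 from the start): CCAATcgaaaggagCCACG
Hsp90b1 (chr7:23012347-23012365, + strand, -72 to -54 from the start): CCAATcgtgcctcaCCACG
Calr (chr19:40213135-40213153, - strand, -232 to -214 from the start): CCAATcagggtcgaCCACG
Canx (chr10:35158069-35158087, - strand, -230 to -212 from the start): CCAATcatcacgctCCACG
Dnajc3 (chr15:102432534-102432552, + strand, -133 to -115 from the start): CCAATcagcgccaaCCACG
Creld2 (chr7:121789239-121789257, - strand, -145 to -127 from the start): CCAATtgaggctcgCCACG
Derl3 (chr20:12766601-12766619, + strand, -154 to -136 from the start): CCAATaaggaagtcCCACG
Xbp1 (chr14:84604558-84604576, + strand, -65 to -47 from the start): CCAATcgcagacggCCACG
The 9 bases between the boxes differed at every site, and 6 of the 8 genes were chaperones.

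ERSE-II matches before the start are printed the same way, with the ATTGG and CCACG boxes in capitals. In Hyou1 the one farther from the start overlaps that gene's UPR element core.
Herpud1 (chr19:10614821-10614831, - strand, -124 to -114 from the start): ATTGGgCCACG
Hyou1 (chr8:53602694-53602704, - strand, -188 to -178 from the start): ATTGGcCCACG
Hyou1 (chr8:53602794-53602804, - strand, -88 to -78 from the start): ATTGGgCCACG
A further ERSE-II match, in Dnajb11, spans the annotated start and is not printed.

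Composite cores are given with 10 bases on each side and with the fixed letters of the core in capitals. They were in Trib3, Chac1 and Herpud1, and in none of the other ATF4 targets within this window.
Trib3 (chr3:161275537-161275564, + strand, -31 to -4 from the start): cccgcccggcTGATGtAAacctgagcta
Chac1 (chr3:126795954-126795981, - strand, -177 to -150 from the start): ctagcaggagTGATGcAAcggcggagaa
Herpud1 (chr19:10614874-10614901, + strand, -194 to -167 from the start): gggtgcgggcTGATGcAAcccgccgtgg

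The promoter of Hspa5, which encodes BiP and is the standard reporter of ER stress, held both an ERSE and a UPR element core. The stretch from -155 to -5 is printed from chr3:38452861-38453011 (GRCr8, + strand), with the UPR element core and then the CCAAT and CCACG boxes in capitals.
Hspa5 promoter: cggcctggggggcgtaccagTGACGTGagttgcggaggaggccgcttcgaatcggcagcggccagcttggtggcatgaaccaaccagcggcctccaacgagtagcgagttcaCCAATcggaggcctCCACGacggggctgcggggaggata

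Total counts were 24434925 to 46206581 per library. Levels are given as CPM, counts over the TMM-scaled library total, in which 1 count was worth 0.0213 to 0.0422 CPM. Levels of different genes are compared only in TPM, which corrects for transcript length. The targeted transcripts were lower where their siRNA was given. Btg1 averaged 51.7 ± 2.41 CPM in double knockdowns, 66.2 ± 4.07 in Btg1 knockdowns, 299 ± 4.70 in Btg2 knockdowns and 283 ± 2.19 in scramble cultures (SD, n = 3 each). Btg2 averaged 68.7 ± 0.983 CPM in double knockdowns, 175 ± 5.003 in Btg1 knockdowns, 85.2 ± 2.31 in Btg2 knockdowns and 139 ± 6.41 in scramble cultures. It was thus higher in Btg1 knockdowns than in scramble cultures, at 0.34 ± 0.04 (edgeR adjusted p = 7.5e-07) on the log2 scale. For log2 changes ± gives the SE throughout.

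The cultures carried the markers of their label. The 8 measured cardiomyocyte markers summed to 24188 to 24534 CPM in double knockdowns, 22391 to 25499 in Btg1 knockdowns, 22403 to 24572 in Btg2 knockdowns and 21717 to 22259 in scramble cultures. The sum lay above scramble in every group. Such sums follow their most abundant markers. The median log2 change of the 8 was 0.004, 0.114 and 0.030 in double, Btg1 and Btg2 knockdowns. Of the 8 markers 1 was called higher and 1 lower in double knockdowns, 4 higher and 2 lower in Btg1 knockdowns, and 2 higher and 0 lower in Btg2 knockdowns. In Btg2 knockdowns DESeq2 called 1 higher, and it and an unadjusted p below 0.05 also gave 0 lower. Over all genes 19.5%, 17.8% and 13.6% were called lower in double, Btg1 and Btg2 knockdowns, and 19.4%, 18.7% and 16.4% higher. Fibroblast transcripts were also present, with marker sums of 12573 to 13632 CPM in double knockdowns, 12464 to 14777 in Btg1 knockdowns, 15259 to 16154 in Btg2 knockdowns and 15377 to 15966 in scramble cultures. Of 10 fibroblast markers 8 were called lower in double knockdowns and 7 in Btg1 knockdowns, and there the sums lay below scramble. In Btg2 knockdowns 7 were called lower and the sum overlapped scramble. The 8 endothelial markers summed to 77.3 to 81.03 CPM in double knockdowns, 94.8 to 104 in Btg1 knockdowns, 91.6 to 95.3 in Btg2 knockdowns and 109 to 116 in scramble cultures. Of them 7 were called lower and 1 higher in double knockdowns and 1 lower and 1 higher in Btg1 knockdowns, the second near the share over all genes, and 4 were called lower in Btg2 knockdowns. The 9 macrophage and leukocyte markers summed to 41.1 to 43.4 CPM in double knockdowns, 38.3 to 43.03 in Btg1 knockdowns, 35.4 to 37.3 in Btg2 knockdowns and 46.04 to 55.3 in scramble cultures, and 3, 3 and 6 of them were called lower in double, Btg1 and Btg2 knockdowns. No marker of these lists was at 0 in all libraries. The 5 Schwann and neuronal markers summed to 23.5 to 26.2 CPM in double, 22.9 to 29.5 in Btg1 and 28.3 to 30.5 in Btg2 knockdowns. In scramble cultures they summed to 31.6 to 35.3 CPM. Of the 3 tested, 2, 2 and 0 were called lower, and in Btg2 knockdowns 1 had an unadjusted p below 0.05 as lower and 1 as higher. No marker of these lists was at 0 in all libraries. The summed smooth muscle markers were higher, averaging 2214 ± 91.7 CPM in double, 2531 ± 301 in Btg1 and 2494 ± 180 in Btg2 knockdowns. In scramble cultures they averaged 2105 ± 74.3 CPM (SD, n = 3 each), and only the double knockdowns overlapped scramble. Of these 6 markers 3, 2 and 1 were called higher and 1, 1 and 0 lower. DESeq2 and an unadjusted p below 0.05 also gave 0 lower in Btg2 knockdowns. In bulk RNA a change in cell number and one in RNA per cell cannot be told apart. The part that RNA of these other cell types had in the results below was not tested.

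In scramble cultures 5 of the chaperone genes stood highest on the TPM scale. Calr, the calcium-binding lectin chaperone calreticulin, led at 1545 ± 50.2 TPM and was the 55th of all genes, followed by Hspa5 at 1084 ± 53.9 TPM (SD, n = 3 each). Next were the disulfide isomerase gene Pdia3 at 977 ± 37.3, the HSP90 paralogue gene Hsp90b1 (GRP94) at 826 ± 41.3 and Pdia6 at 823 ± 29.1 TPM. Of these neighbours only Hsp90b1 and Pdia6 overlapped in their libraries. Atf4 at 479 ± 7.17 TPM and Atf5 at 429 ± 10.7 TPM came next, above all 9 ATF4 targets, and Ddit3, which encodes CHOP, was at 151 ± 7.31 TPM. The ATF4 targets ran from Ppp1r15a at 125 ± 3.57 TPM, which overlapped Sdf2l1 above and Derl1 below, down to Slc7a11, the lowest of the 37, with 4.80, 4.90 and 5.30 TPM in the 3 libraries.

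The stress sensors were among the lowest. Atf6 was at 30.2 ± 0.529 TPM, Eif2ak3 (PERK) at 13.7 ± 0.265, Ern1 (IRE1) at 12.9 ± 0.656 and Eif2ak4 (GCN2) at 10.6 ± 0.451 TPM, and PERK overlapped IRE1. The plot of TPM by gene shows the whole order.

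**Figure D1:**
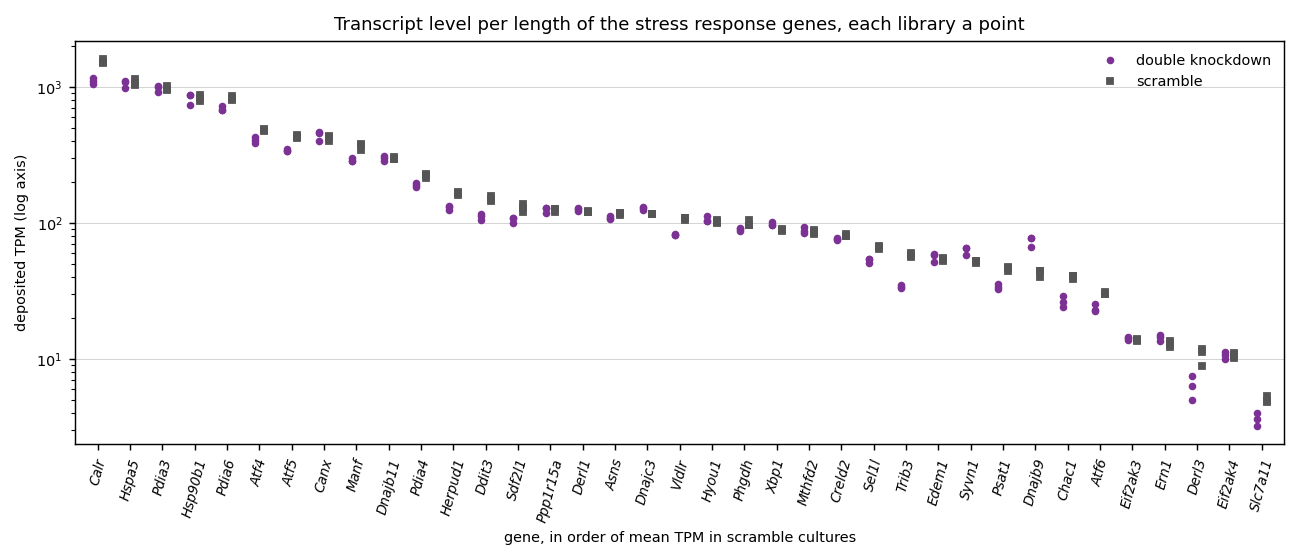
Deposited TPM (log axis) of the 37 genes in each double knockdown library (circles) and each scramble library (squares), ordered by the scramble mean. Calr stands highest and Slc7a11 lowest in scramble cultures, and the Dnajb9 circles lie above their squares while those of Trib3 and Derl3 lie below.

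Summed over the 14 chaperone and folding genes, the level was 6369.8 ± 322 TPM in double knockdowns, 5947 ± 126 in Btg1 knockdowns, 6925 ± 118 in Btg2 knockdowns and 7031 ± 248 in scramble cultures (SD, n = 3 each). The 9 ATF4 targets summed to 592 ± 10.4 TPM in double knockdowns, 618 ± 28.1 in Btg1 knockdowns, 654 ± 13.7 in Btg2 knockdowns and 683 ± 8.12 in scramble cultures. Both sums follow their most abundant members and were not tested.

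Most of these genes that changed were lower after knockdown. In double knockdowns against scramble, 18 of 37 fell and 4 rose, which is 48.6% and 10.8% of them, while over all genes tested 38.9% passed, 19.5% as falls and 19.4% as rises. The median log2 change was -0.11 over the 37 genes and -0.01 over all genes. By role, falls and rises numbered 5 and 2 of 14 for chaperones and folding, 3 and 1 of 6 for degradation, 4 and 1 of 8 for sensors and transcription factors, and 6 and 0 of 9 for ATF4 targets. The median log2 change was -0.03, -0.14, -0.13 and -0.40 in these roles. The count of 0 rises is edgeR's, and DESeq2 and an unadjusted p below 0.05 also gave 0.

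Btg1 knockdown alone gave 20 falls and 2 rises of 37 (54.1% and 5.41%), against 17.8% and 18.7% of all genes, 36.5% in all. Falls and rises were 7 and 1 for chaperones and folding, 3 and 0 for degradation, 4 and 1 for sensors and transcription factors and 6 and 0 for ATF4 targets. No degradation gene or ATF4 target passed as higher by DESeq2 or at an unadjusted p below 0.05 either. Btg2 knockdown alone gave 11 falls and 7 rises (29.7% and 18.9%), against 13.6% and 16.4% of all genes, 30% in all. There falls and rises were 5 and 3 for chaperones and folding, 2 and 2 for degradation, 2 and 2 for sensors and transcription factors and 2 and 0 for ATF4 targets, again with 0 ATF4 targets higher by DESeq2 or at an unadjusted p below 0.05. The 3 comparisons share the scramble libraries, so they are not independent of each other. Whether the roles differ from one another was not tested.

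**Figure D2:**
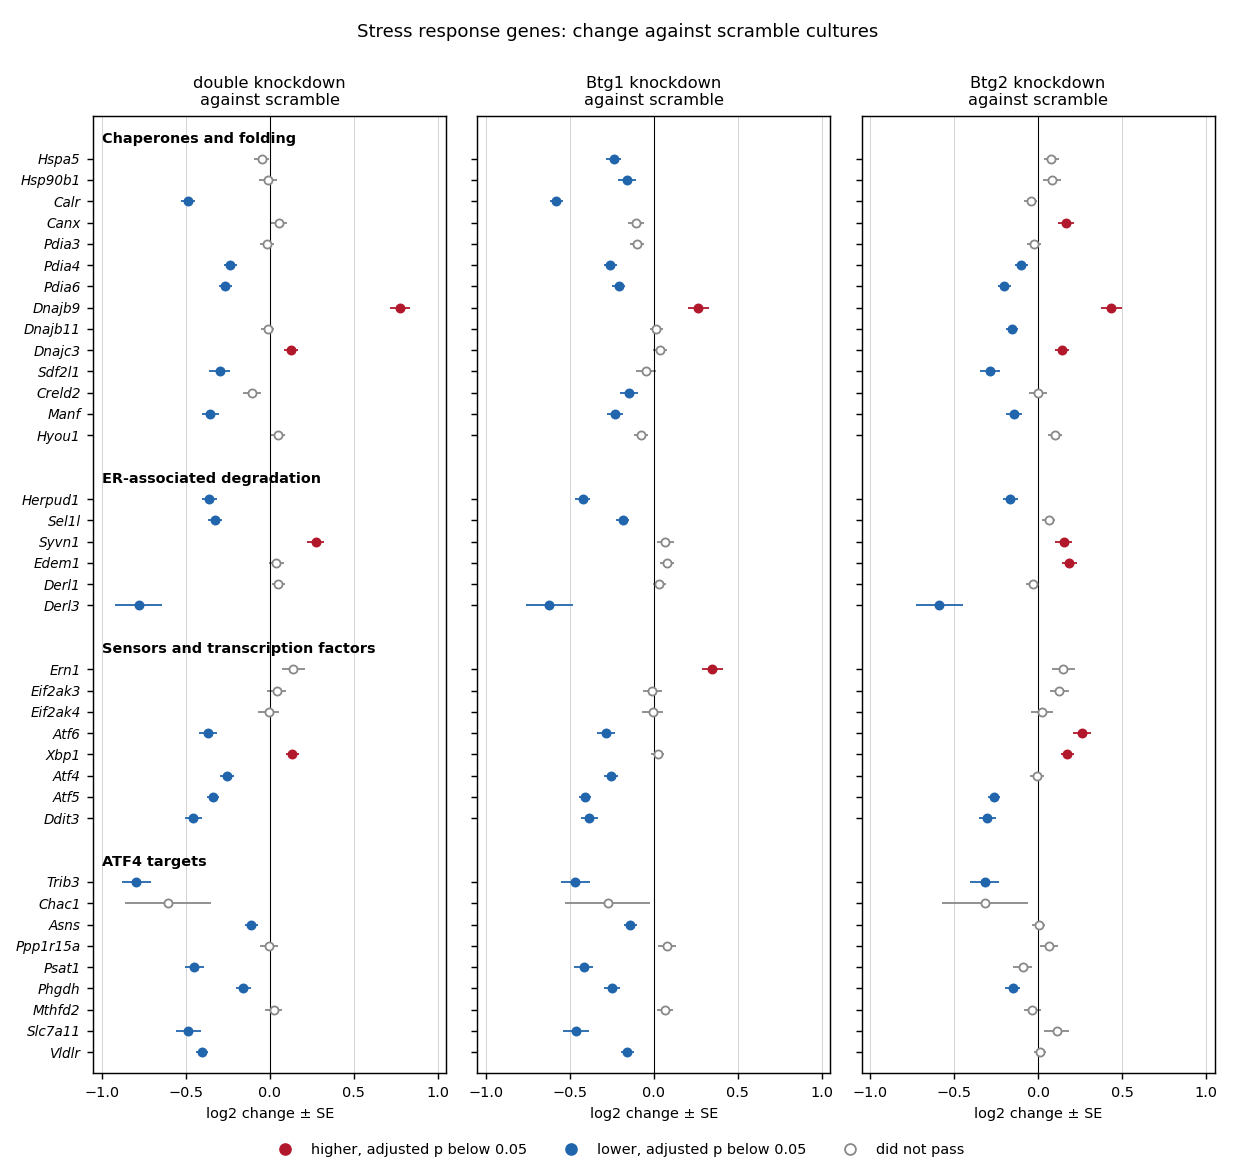
Log2 change ± SE of each gene against scramble in double knockdowns (left), Btg1 knockdowns (middle) and Btg2 knockdowns (right), with red for rises, blue for falls and open circles for genes that did not pass edgeR's adjusted p of 0.05. ATF4 targets reach -0.79 (Trib3) in double knockdowns, and Dnajb9 is right of 0 in each panel.

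Among the chaperones the clearest fall was that of Calr. It had 1086, 1037 and 1000.5 CPM in double knockdowns and 975, 974 and 978 CPM in Btg1 knockdowns. In Btg2 knockdowns Calr had 1402, 1445 and 1395 CPM, and in scramble cultures 1519, 1423 and 1434 CPM. The double and Btg1 knockdowns lay below every scramble library, and the Btg2 knockdowns overlapped scramble. Its log2 change was -0.49 ± 0.04 (edgeR adjusted p = 1.8e-09) in double knockdowns and -0.58 ± 0.04 (edgeR adjusted p = 1.5e-10) in Btg1 knockdowns, which left 71.4% and 66.9% of the scramble level. In Btg2 knockdowns the change of -0.04 ± 0.04 (edgeR adjusted p = 0.43) did not pass, with a 95% interval of -0.13 to 0.04.

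Hspa5 (BiP), the chaperone that also holds the sensors inactive, moved less. It had 1415, 1391 and 1278 CPM in double knockdowns and 1176, 1219 and 1181 CPM in Btg1 knockdowns. In Btg2 knockdowns Hspa5 had 1454, 1486 and 1514 CPM, and in scramble cultures 1489, 1346 and 1385 CPM. Only the Btg1 knockdowns lay below scramble without overlap, at -0.24 ± 0.04 (edgeR adjusted p = 0.00019) on the log2 scale or 84.7% of the scramble level. The differences of -0.05 ± 0.04 (edgeR adjusted p = 0.44) in double knockdowns and 0.08 ± 0.04 (edgeR adjusted p = 0.2) in Btg2 knockdowns did not pass, with 95% intervals of -0.14 to 0.05 and -0.01 to 0.17.

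Dnajb9, which encodes the BiP co-chaperone ERdj4 and is a known XBP1 target, was the one chaperone gene that rose in each knockdown. It had 73.6, 74.9 and 64.6 CPM in double knockdowns and 48.7, 54.2 and 46.5 CPM in Btg1 knockdowns. In Btg2 knockdowns Dnajb9 had 55.1, 55.8 and 57.4 CPM, and in scramble cultures 43.2, 39.03 and 42.3 CPM. No knockdown library overlapped the scramble libraries, and the double knockdowns lay above both single knockdowns. The log2 rise was 0.78 ± 0.06 (edgeR adjusted p = 1.1e-09) in double knockdowns, 0.26 ± 0.06 (edgeR adjusted p = 0.0019) in Btg1 knockdowns and 0.44 ± 0.06 (edgeR adjusted p = 1.5e-05) in Btg2 knockdowns, which are 171%, 119.9% and 135% of the scramble level.

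Pdia6, Manf and Sdf2l1 were lower in double knockdowns. Pdia6, a disulfide isomerase that also tempers IRE1, had 616, 584 and 592 CPM in double knockdowns and 624, 618 and 619 CPM in Btg1 knockdowns. In Btg2 knockdowns Pdia6 had 637, 624 and 610.5 CPM, and in scramble cultures 749, 710.2 and 692 CPM. All knockdown libraries lay below all scramble libraries, with log2 changes of -0.26 ± 0.04 (edgeR adjusted p = 6.8e-06), -0.21 ± 0.04 (edgeR adjusted p = 0.00013) and -0.20 ± 0.04 (edgeR adjusted p = 0.0003) in double, Btg1 and Btg2 knockdowns. Manf, a secreted factor that ER stress induces, had 77.6, 78.00 and 82.98 CPM in double knockdowns and 86.9, 85.3 and 87.2 CPM in Btg1 knockdowns. In Btg2 knockdowns Manf had 98.03, 87.6 and 89.9 CPM, and in scramble cultures 105, 105 and 95.2 CPM. It was lower, at -0.35 ± 0.05 (edgeR adjusted p = 4.2e-06) in double knockdowns and -0.23 ± 0.05 (edgeR adjusted p = 0.0006) in Btg1 knockdowns, while its change of -0.14 ± 0.05 (edgeR adjusted p = 0.029) in Btg2 knockdowns came with overlapping libraries and was lost without scramble replicates 1 or 2 or without Btg2 knockdown replicates 2 or 3 (log2 change -0.13 to -0.11, adjusted p = 0.11 to 0.14).

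Sdf2l1, part of an ER chaperone complex with ERdj3, had 57.8, 52.97 and 58.1 CPM in double knockdowns and 67.1, 65.4 and 68.3 CPM in Btg1 knockdowns. In Btg2 knockdowns Sdf2l1 had 62.3, 52.01 and 55.4 CPM, and in scramble cultures 73.98, 69.5 and 64.1 CPM. The double and Btg2 knockdowns lay below scramble, and the Btg1 knockdowns overlapped it. The log2 change was -0.30 ± 0.06 (edgeR adjusted p = 0.00046) in double knockdowns, -0.05 ± 0.06 (edgeR adjusted p = 0.58) in Btg1 knockdowns, which did not pass, and -0.29 ± 0.06 (edgeR adjusted p = 0.0011) in Btg2 knockdowns.

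The other chaperone genes moved by at most -0.26 (Pdia4 in Btg1 knockdowns). Pdia4, a disulfide isomerase, was lower, at -0.23 ± 0.04 (edgeR adjusted p = 2.7e-05) in double knockdowns and -0.26 ± 0.04 (edgeR adjusted p = 8.8e-06) in Btg1 knockdowns, and its change of -0.10 ± 0.04 (edgeR adjusted p = 0.047) in Btg2 knockdowns was lost without scramble replicates 1 or 3, without Btg1 knockdown replicate 2, without Btg2 knockdown replicates 1, 2 or 3, with RLE scaling, with no filter on low counts or by limma on log2 TPM with either pseudocount (log2 change -0.11 to -0.08, adjusted p = 0.051 to 0.2). Dnajc3, the BiP co-chaperone P58IPK, rose by 0.13 ± 0.04 (edgeR adjusted p = 0.019) in double knockdowns, a call lost without scramble replicates 1 or 3 or without double knockdown replicate 1 (log2 change 0.11 to 0.13, adjusted p = 0.051 to 0.068). Its rise of 0.14 ± 0.04 (edgeR adjusted p = 0.012) in Btg2 knockdowns was lost without Btg2 knockdown replicate 3 or with scaling by library size alone (log2 change 0.11 to 0.12, adjusted p = 0.078). Hsp90b1 and Creld2, an ER-resident folding factor, passed against scramble only in Btg1 knockdowns, at -0.16 ± 0.05 (edgeR adjusted p = 0.024) and -0.15 ± 0.05 (edgeR adjusted p = 0.026). The Hsp90b1 call was lost without scramble replicates 1 or 3 or without Btg1 knockdown replicates 1 or 2 (log2 change -0.16 to -0.12, adjusted p = 0.058 to 0.13), and that of Creld2 without scramble replicates 1 or 2 or without Btg1 knockdown replicates 1 or 2 (log2 change -0.15 to -0.13, adjusted p = 0.057 to 0.1).

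Canx, the membrane-bound lectin chaperone calnexin, passed in Btg2 knockdowns as higher at 0.16 ± 0.05 (edgeR adjusted p = 0.011), a call lost without scramble replicate 2 (log2 change 0.13, adjusted p = 0.088). In double knockdowns it differed by 0.05 ± 0.05 (edgeR adjusted p = 0.4) and passed without double knockdown replicate 3 (log2 change 0.11, adjusted p = 0.042). In Btg1 knockdowns it differed by -0.11 ± 0.05 (edgeR adjusted p = 0.078) and passed without scramble replicate 2, without double knockdown replicate 3 or with only the compared groups in the fit (log2 change -0.15 to -0.11, adjusted p = 0.03 to 0.039). Dnajb11 (ERdj3) was lower in Btg2 knockdowns, at -0.16 ± 0.04 (edgeR adjusted p = 0.0029) and did not pass elsewhere against scramble. Pdia3 and Hyou1, the BiP exchange factor GRP170, did not pass in any of these comparisons. Pdia3 passed in Btg1 knockdowns without double knockdown replicate 3, by DESeq2, with scaling by library size alone or with only the compared groups in the fit (log2 change -0.11 to -0.10, adjusted p = 0.037 to 0.047), and Hyou1 in Btg2 knockdowns without Btg2 knockdown replicate 2 or with only the compared groups in the fit (log2 change 0.10 to 0.13, adjusted p = 0.034 to 0.042).

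Of the 8 genes with an ERSE shown above, Calr and Derl3 fell and Dnajc3 and Xbp1 rose in double knockdowns, and Hspa5, Hsp90b1, Canx and Creld2 did not pass. In Btg1 knockdowns Hspa5, Hsp90b1, Calr, Creld2 and Derl3 fell, and Canx, Dnajc3 and Xbp1 did not pass. In Btg2 knockdowns Derl3 fell, Canx, Dnajc3 and Xbp1 rose, and Hspa5, Hsp90b1, Calr and Creld2 did not pass. Over all genes 19.5%, 17.8% and 13.6% fell and 19.4%, 18.7% and 16.4% rose in double, Btg1 and Btg2 knockdowns. Whether genes with an ERSE differ from other genes was not tested.

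**Figure D3:**
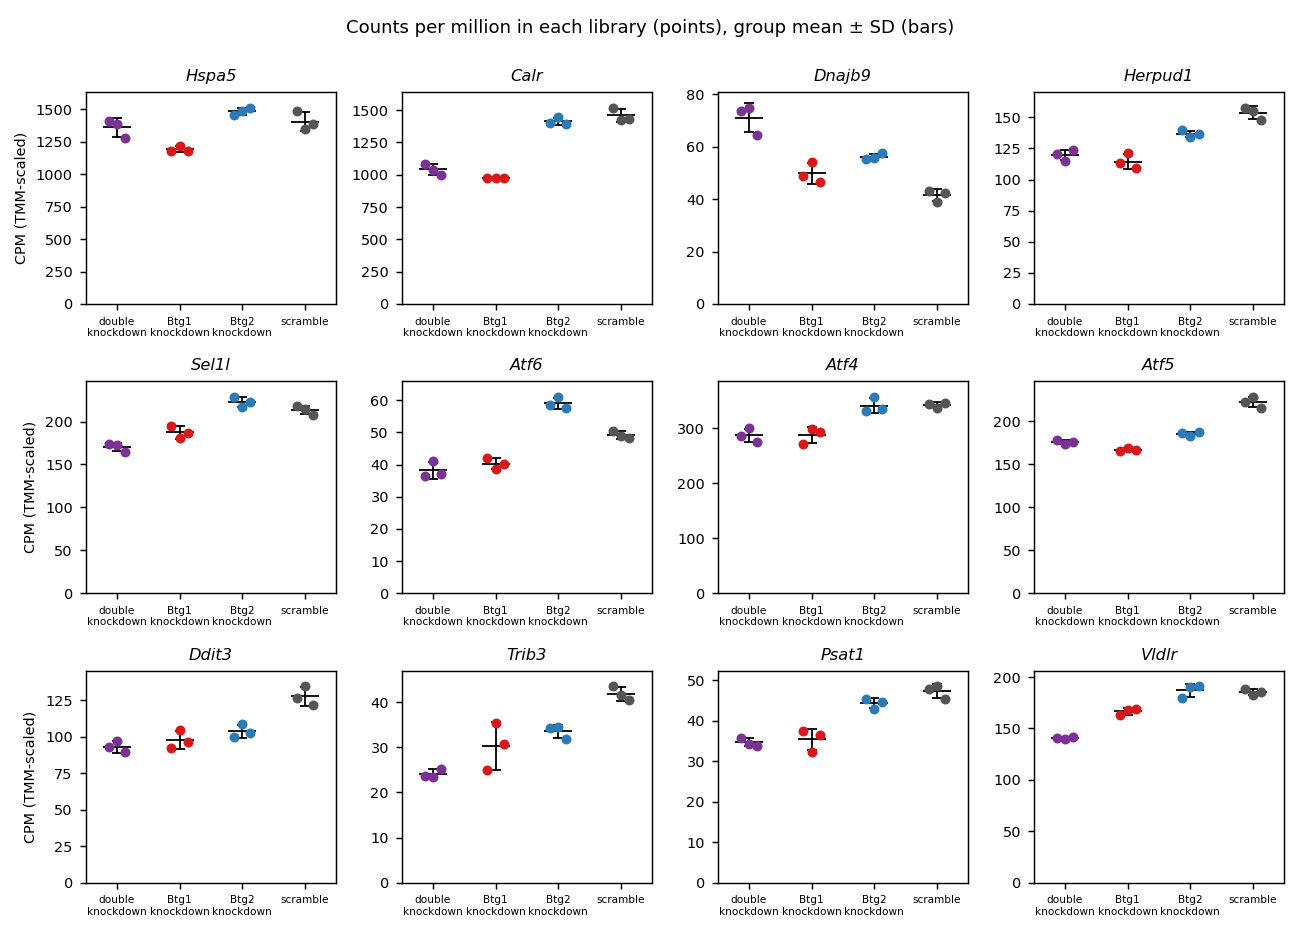
TMM-scaled CPM of 12 of the genes in each library (points) with the group mean ± SD (bars), for double, Btg1 and Btg2 knockdowns and scramble cultures from left to right. Calr, Atf6, Atf4 and Psat1 are low in the double and Btg1 knockdowns, Dnajb9 is highest in the double knockdowns, and Vldlr is lowest there at 141, 139 and 142 CPM.

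In ER-associated degradation, which returns misfolded proteins to the cytosol for the proteasome, 2 subunits of the HRD1 complex fell and its ligase rose in double knockdowns. Herpud1, the stress-induced scaffold of that complex, had 120.1, 115 and 124 CPM in double knockdowns and 113, 121 and 109 CPM in Btg1 knockdowns. In Btg2 knockdowns Herpud1 had 139, 135 and 137 CPM, and in scramble cultures 158, 155 and 148 CPM. All knockdown libraries lay below the scramble libraries, and those with siBtg1 lay lowest. The log2 change was -0.36 ± 0.04 (edgeR adjusted p = 6.9e-07) in double knockdowns, -0.42 ± 0.04 (edgeR adjusted p = 6.6e-08) in Btg1 knockdowns and -0.17 ± 0.04 (edgeR adjusted p = 0.0059) in Btg2 knockdowns.

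Sel1l, the adaptor that stabilises the HRD1 ligase, had 173, 173 and 165 CPM in double knockdowns and 195, 181 and 186 CPM in Btg1 knockdowns. In Btg2 knockdowns Sel1l had 229, 217 and 223 CPM, and in scramble cultures 218, 214 and 208 CPM. It was lowest in double knockdowns and overlapped scramble in Btg2 knockdowns. Its log2 change was -0.33 ± 0.04 (edgeR adjusted p = 5.6e-07) in double knockdowns, -0.19 ± 0.04 (edgeR adjusted p = 0.00057) in Btg1 knockdowns and 0.06 ± 0.04 (edgeR adjusted p = 0.23) in Btg2 knockdowns, the last of which did not pass. Syvn1, the HRD1 ubiquitin ligase itself, rose to 121% of scramble in double knockdowns, 0.27 ± 0.05 (edgeR adjusted p = 9.9e-05) on the log2 scale. It differed by 0.07 ± 0.05 (edgeR adjusted p = 0.3) in Btg1 knockdowns without passing, and its rise of 0.15 ± 0.05 (edgeR adjusted p = 0.023) in Btg2 knockdowns was lost without scramble replicates 1 or 3, without Btg2 knockdown replicates 1 or 3, with scaling by library size alone or by limma on log2 TPM with either pseudocount (log2 change 0.12 to 0.15, adjusted p = 0.058 to 0.086).

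Edem1, a lectin that helps hand misfolded glycoproteins to degradation, had 168, 165 and 149 CPM in double knockdowns and 167, 166 and 161 CPM in Btg1 knockdowns. In Btg2 knockdowns Edem1 had 180.2, 171 and 182 CPM, and in scramble cultures 157, 153 and 159 CPM. It rose in Btg2 knockdowns alone of the 3 comparisons, by 0.19 ± 0.04 (edgeR adjusted p = 0.0021), while 0.04 ± 0.04 (edgeR adjusted p = 0.5) in double knockdowns and 0.08 ± 0.04 (edgeR adjusted p = 0.17) in Btg1 knockdowns did not pass. Derl3, a derlin of the export channel, was low throughout, with 5.08, 4.26 and 3.45 CPM in double knockdowns and 4.21, 4.96 and 5.14 CPM in Btg1 knockdowns. In Btg2 knockdowns Derl3 had 4.68, 4.89 and 5.01 CPM, and in scramble cultures 7.70, 8.13 and 6.07 CPM. Its knockdown libraries all lay below scramble, at -0.78 ± 0.14 (edgeR adjusted p = 0.00011), -0.62 ± 0.14 (edgeR adjusted p = 0.0011) and -0.59 ± 0.14 (edgeR adjusted p = 0.0028) on the log2 scale in double, Btg1 and Btg2 knockdowns. Derl1, the widely expressed derlin, did not pass in any of them, at 0.05, 0.03 and -0.03.

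The sensor genes did not move together. Atf6, the sensor that becomes a transcription factor once cut, had 36.5, 41.1 and 36.96 CPM in double knockdowns and 42.1, 38.6 and 40.1 CPM in Btg1 knockdowns. In Btg2 knockdowns Atf6 had 58.5, 60.99 and 57.7 CPM, and in scramble cultures 50.5, 48.9 and 48.2 CPM. No group overlapped scramble: the double and Btg1 knockdowns were lower and the Btg2 knockdowns higher. The log2 change was -0.37 ± 0.05 (edgeR adjusted p = 9.6e-06), -0.29 ± 0.05 (edgeR adjusted p = 0.00018) and 0.26 ± 0.05 (edgeR adjusted p = 0.0006) in double, Btg1 and Btg2 knockdowns, and between double and Btg2 knockdowns it was -0.63 ± 0.05 (edgeR adjusted p = 5.2e-09).

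Ern1 (IRE1), the sensor that splices Xbp1, had 22.1, 21.6 and 20.2 CPM in double knockdowns and 25.04, 25.4 and 23.2 CPM in Btg1 knockdowns. In Btg2 knockdowns Ern1 had 22.2, 20.7 and 21.3 CPM, and in scramble cultures 19.3, 18.4 and 20.2 CPM. It was highest in Btg1 knockdowns, where it rose by 0.35 ± 0.07 (edgeR adjusted p = 0.00018) to 127% of scramble. In double knockdowns it differed by 0.14 ± 0.07 (edgeR adjusted p = 0.094) and in Btg2 knockdowns by 0.15 ± 0.07 (edgeR adjusted p = 0.092), neither of which passed although their libraries did not overlap scramble. The eIF2 kinase genes Eif2ak3 (PERK) and Eif2ak4 (GCN2) did not pass in any of the 3 comparisons, with log2 changes of 0.04, -0.01 and 0.13 for PERK and -0.01, -0.01 and 0.02 for GCN2 in double, Btg1 and Btg2 knockdowns.

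Atf4, Atf5 and Ddit3 fell in double and Btg1 knockdowns, and Atf5 and Ddit3 also in Btg2 knockdowns. Atf4, which activates amino acid and redox genes, had 285, 300.1 and 275 CPM in double knockdowns and 271, 298 and 293 CPM in Btg1 knockdowns. In Btg2 knockdowns Atf4 had 331, 357 and 334 CPM, and in scramble cultures 345, 337 and 345 CPM. The double and Btg1 knockdowns lay below scramble, at -0.25 ± 0.04 (edgeR adjusted p = 4.5e-05) and -0.25 ± 0.04 (edgeR adjusted p = 5.2e-05) on the log2 scale, and the Btg2 knockdowns overlapped it at -0.01 ± 0.04 (edgeR adjusted p = 0.94). These are transcript levels, and ATF4 protein depends mainly on translation.

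Atf5, a related factor that is also controlled through eIF2, had 178, 173 and 176 CPM in double knockdowns and 165, 169 and 167 CPM in Btg1 knockdowns. In Btg2 knockdowns Atf5 had 186, 183 and 187 CPM, and in scramble cultures 222, 228 and 216 CPM. All knockdown libraries lay below scramble, with log2 changes of -0.34 ± 0.04 (edgeR adjusted p = 7.6e-08), -0.41 ± 0.04 (edgeR adjusted p = 4.3e-09) and -0.26 ± 0.04 (edgeR adjusted p = 6.8e-06) in double, Btg1 and Btg2 knockdowns. Ddit3 (CHOP), the factor tied to cell death under lasting stress, had 92.6, 97.1 and 89.3 CPM in double knockdowns and 92.4, 105 and 96.2 CPM in Btg1 knockdowns. In Btg2 knockdowns Ddit3 had 99.9, 108 and 102 CPM, and in scramble cultures 126, 135 and 122 CPM. It too was below scramble in every knockdown library, at -0.46 ± 0.05 (edgeR adjusted p = 1.8e-07), -0.39 ± 0.05 (edgeR adjusted p = 2.1e-06) and -0.30 ± 0.05 (edgeR adjusted p = 8.5e-05).

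Xbp1 had 176, 186 and 179 CPM in double knockdowns and 166, 171 and 164 CPM in Btg1 knockdowns. In Btg2 knockdowns Xbp1 had 184, 179 and 191 CPM, and in scramble cultures 168, 164 and 159.8 CPM. It rose by 0.14 ± 0.04 (edgeR adjusted p = 0.0074) in double knockdowns and 0.17 ± 0.04 (edgeR adjusted p = 0.0014) in Btg2 knockdowns, and the difference of 0.02 ± 0.04 (edgeR adjusted p = 0.67) in Btg1 knockdowns did not pass. Gene counts do not separate its spliced from its unspliced form.

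In double knockdowns the ATF4 target Trib3 and the derlin Derl3 were the lowest relative to scramble, at 57.7% and 58.4%, which do not differ beyond their errors. Trib3, a pseudokinase gene that CHOP and ATF4 raise, had 23.8, 23.4 and 25.3 CPM in double knockdowns and 24.9, 35.5 and 30.8 CPM in Btg1 knockdowns. In Btg2 knockdowns Trib3 had 34.4, 34.5 and 31.99 CPM, and in scramble cultures 43.6, 41.6 and 40.4 CPM. All knockdown libraries were below scramble. The log2 change was -0.79 ± 0.09 (edgeR adjusted p = 1.0e-06) in double knockdowns, -0.47 ± 0.09 (edgeR adjusted p = 0.00032) in Btg1 knockdowns and -0.32 ± 0.09 (edgeR adjusted p = 0.0098) in Btg2 knockdowns, and the last call was lost without Btg2 knockdown replicate 3 (log2 change -0.28, adjusted p = 0.052). This left 57.7%, 72.5% and 80.3% of the scramble level.

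Chac1, which encodes a glutathione-degrading enzyme and shares the composite core with Trib3, had 18.8, 22.97 and 20.7 CPM in double knockdowns and 18.4, 38.4 and 21.9 CPM in Btg1 knockdowns. In Btg2 knockdowns Chac1 had 24.1, 30.5 and 22.5 CPM, and in scramble cultures 32.4, 30.8 and 31.8 CPM. It did not pass against scramble in any group, at -0.60 ± 0.25 (edgeR adjusted p = 0.097) in double knockdowns, -0.28 ± 0.25 (edgeR adjusted p = 0.45) in Btg1 knockdowns and -0.32 ± 0.25 (edgeR adjusted p = 0.4) in Btg2 knockdowns. Btg1 knockdown replicate 2 stood far above its group. Without that library the call was made in double knockdowns (-0.60, edgeR adjusted p = 7.0e-05), in Btg1 knockdowns (-0.66, edgeR adjusted p = 0.00015) and in Btg2 knockdowns (-0.32, edgeR adjusted p = 0.019). The double knockdown call was also made without Btg1 knockdown replicate 1 (-0.60, edgeR adjusted p = 0.045). With only the compared groups in the fit both double knockdowns (-0.60, edgeR adjusted p = 1.2e-05) and Btg2 knockdowns (-0.32, edgeR adjusted p = 0.01) were called.

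Of the serine synthesis enzymes, Psat1 had 35.8, 34.3 and 33.9 CPM in double knockdowns and 37.4, 32.4 and 36.4 CPM in Btg1 knockdowns. In Btg2 knockdowns Psat1 had 45.3, 42.99 and 44.6 CPM, and in scramble cultures 47.97, 48.5 and 45.3 CPM. The double and Btg1 knockdowns lay below scramble, and the Btg2 knockdowns overlapped it. Its log2 change was -0.45 ± 0.06 (edgeR adjusted p = 1.1e-06) in double knockdowns, -0.42 ± 0.06 (edgeR adjusted p = 3.1e-06) in Btg1 knockdowns and -0.09 ± 0.06 (edgeR adjusted p = 0.23) in Btg2 knockdowns. Phgdh, the first enzyme of the pathway, had 81.1, 78.7 and 83.9 CPM in double knockdowns and 74.4, 77.2 and 77.3 CPM in Btg1 knockdowns. In Btg2 knockdowns Phgdh had 79.1, 81.98 and 83.7 CPM, and in scramble cultures 95.5, 88.5 and 88.04 CPM. It was lower, at -0.16 ± 0.04 (edgeR adjusted p = 0.0071), -0.25 ± 0.04 (edgeR adjusted p = 0.00012) and -0.15 ± 0.05 (edgeR adjusted p = 0.013) in double, Btg1 and Btg2 knockdowns, with no overlap with scramble. The double knockdown call was lost without scramble replicate 1 (log2 change -0.12, adjusted p = 0.06) and that in Btg2 knockdowns without scramble replicate 1 or without Btg2 knockdown replicate 1 (log2 change -0.13 to -0.12, adjusted p = 0.064 to 0.088).

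Slc7a11, the cystine transporter that feeds glutathione synthesis, had 17.5, 16.1 and 14.6 CPM in double knockdowns and 15.2, 17.9 and 15.8 CPM in Btg1 knockdowns. In Btg2 knockdowns Slc7a11 had 25.05, 24.3 and 23.5 CPM, and in scramble cultures 21.8, 22.00 and 23.5 CPM. Its double and Btg1 knockdown libraries lay below scramble, at -0.48 ± 0.08 (edgeR adjusted p = 2.3e-05) and -0.46 ± 0.08 (edgeR adjusted p = 4.2e-05), and its Btg2 knockdowns differed by 0.11 ± 0.07 (edgeR adjusted p = 0.28) without passing. Vldlr, a lipoprotein receptor gene raised by PERK and ATF4, had 141, 139 and 142 CPM in double knockdowns and 163, 168 and 169 CPM in Btg1 knockdowns. In Btg2 knockdowns Vldlr had 179.9, 191 and 191 CPM, and in scramble cultures 189, 183 and 186 CPM. It was lowest in double knockdowns, at -0.40 ± 0.04 (edgeR adjusted p = 9.2e-09), intermediate in Btg1 knockdowns, at -0.16 ± 0.04 (edgeR adjusted p = 0.0016), and overlapped scramble in Btg2 knockdowns, at 0.01 ± 0.04 (edgeR adjusted p = 0.86).

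Asns, the asparagine synthetase that is a standard ATF4 readout, moved little. It was lower, at -0.11 ± 0.04 (edgeR adjusted p = 0.025) in double knockdowns and -0.14 ± 0.04 (edgeR adjusted p = 0.0051) in Btg1 knockdowns, and in Btg2 knockdowns it differed by 0.00 ± 0.04 (edgeR adjusted p = 0.97) without passing. The double knockdown call was lost without scramble replicates 1 or 3, without double knockdown replicate 1, with no filter on low counts, with only the compared groups in the fit or by limma on log2 TPM with either pseudocount (log2 change -0.11 to -0.09, adjusted p = 0.057 to 0.11). The eIF2 phosphatase subunit gene Ppp1r15a (GADD34) and the mitochondrial folate enzyme gene Mthfd2 did not pass in any of the 3 comparisons. For Ppp1r15a the log2 change was -0.00, 0.08 and 0.06, and for Mthfd2 0.02, 0.07 and -0.03, in double, Btg1 and Btg2 knockdowns. Ppp1r15a passed as higher in Btg1 knockdowns without Btg1 knockdown replicate 1 (log2 change 0.14, adjusted p = 0.038).

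Double knockdowns were also set against each single knockdown. Against Btg1 knockdowns 6 of 37 genes were higher and 5 lower, 29.7% in all. The count of 11 was 7 without Btg1 knockdown replicate 1, 14 without double knockdown replicate 3 and 7 by limma on log2 TPM with either pseudocount. The 6 higher genes were 9 without double knockdown replicate 3, 3 without Btg1 knockdown replicate 3 and 8 by DESeq2. Over all genes 22.3% passed, 10.3% as higher and 11.9% as lower. The higher genes were Dnajb9 at 0.51 ± 0.06 (edgeR adjusted p = 2.3e-06), Syvn1 at 0.21 ± 0.05 (edgeR adjusted p = 0.0035), Hspa5 at 0.19 ± 0.04 (edgeR adjusted p = 0.0031), Canx, Hyou1 and Xbp1. The lower ones were Trib3 at -0.33 ± 0.09 (edgeR adjusted p = 0.014), whose libraries overlapped, Sdf2l1 at -0.25 ± 0.06 (edgeR adjusted p = 0.0046), Vldlr at -0.25 ± 0.04 (edgeR adjusted p = 3.8e-05), Ern1 and Sel1l. The Trib3 call was lost without double knockdown replicate 2 or without Btg1 knockdown replicate 2 (log2 change -0.30 to -0.20, adjusted p = 0.068 to 0.078). That of Canx (0.16) was lost without double knockdown replicates 1 or 2 or without Btg1 knockdown replicate 3 (log2 change 0.13 to 0.14, adjusted p = 0.065 to 0.088). That of Hyou1 (0.13) was lost without double knockdown replicate 1, without Btg1 knockdown replicates 1 or 3, with only the compared groups in the fit or by limma on log2 TPM with either pseudocount (log2 change 0.10 to 0.14, adjusted p = 0.06 to 0.13), and that of Xbp1 (0.11) without scramble replicate 2, without double knockdown replicate 2, without Btg1 knockdown replicates 1 or 3, with scaling by library size alone, with only the compared groups in the fit or by limma on log2 TPM with either pseudocount (log2 change 0.09 to 0.13, adjusted p = 0.051 to 0.15). Ern1 at -0.21 ± 0.06 (edgeR adjusted p = 0.023) lost its call without double knockdown replicate 3, without Btg1 knockdown replicates 1 or 2 or by limma on log2 TPM with either pseudocount (log2 change -0.19 to -0.17, adjusted p = 0.073 to 0.085), and Sel1l at -0.14 ± 0.04 (edgeR adjusted p = 0.012) lost it without Btg1 knockdown replicate 1 or by limma on log2 TPM with either pseudocount (log2 change -0.12 to -0.11, adjusted p = 0.085 to 0.11). Hsp90b1 (0.15) did not pass but did so without scramble replicate 2, without double knockdown replicate 3, without Btg2 knockdown replicate 1, by DESeq2, with RLE scaling, with scaling by library size alone or with no filter on low counts (log2 change 0.15 to 0.22, adjusted p = 0.0016 to 0.048). Calr (0.09) passed without double knockdown replicate 3 or by DESeq2 (log2 change 0.10 to 0.12, adjusted p = 0.038 to 0.042). Pdia3 (0.09) and Manf (-0.12) passed without double knockdown replicate 3 (0.12, edgeR adjusted p = 0.035 and -0.15, edgeR adjusted p = 0.032).

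Against Btg2 knockdowns 15 of 37 were lower and 2 higher (40.5% and 5.41%), while 32.2% of all genes passed, 17% as lower and 15.2% as higher. With scaling by library size alone the split was 10 lower and 4 higher. The largest falls were those of Atf6 at -0.63 ± 0.05 (edgeR adjusted p = 5.2e-09), Slc7a11 at -0.60 ± 0.08 (edgeR adjusted p = 2.2e-06), Trib3 at -0.47 ± 0.09 (edgeR adjusted p = 0.00046), Calr at -0.44 ± 0.04 (edgeR adjusted p = 1.2e-08), Vldlr at -0.41 ± 0.04 (edgeR adjusted p = 9.6e-09) and Sel1l at -0.39 ± 0.04 (edgeR adjusted p = 5.9e-08). Psat1, Atf4, Manf and Herpud1 were lower, at -0.36, -0.25, -0.21 and -0.19. The other 5 calls were each lost under some alternatives. That of Hspa5 (-0.13) was lost without double knockdown replicate 3, without Btg2 knockdown replicates 2 or 3, with scaling by library size alone, with only the compared groups in the fit or by limma on log2 TPM with either pseudocount (log2 change -0.12 to -0.08, adjusted p = 0.061 to 0.19). That of Pdia4 (-0.13) was lost with scaling by library size alone or by limma on log2 TPM with either pseudocount (log2 change -0.12 to -0.10, adjusted p = 0.051 to 0.059). That of Edem1 (-0.15) was lost without double knockdown replicate 3, without Btg2 knockdown replicate 3, with scaling by library size alone or by limma on log2 TPM with either pseudocount (log2 change -0.13 to -0.09, adjusted p = 0.059 to 0.11). That of Ddit3 (-0.15) was lost without double knockdown replicates 1 or 3, without Btg2 knockdown replicate 2, with scaling by library size alone or by limma on log2 TPM with either pseudocount (log2 change -0.15 to -0.12, adjusted p = 0.051 to 0.12), and that of Asns (-0.11) without double knockdown replicate 1, without Btg2 knockdown replicates 1, 2 or 3, with scaling by library size alone, with no filter on low counts, with only the compared groups in the fit or by limma on log2 TPM with either pseudocount (log2 change -0.12 to -0.08, adjusted p = 0.053 to 0.13). Dnajb9 at 0.34 ± 0.06 (edgeR adjusted p = 0.00014) and Dnajb11 at 0.14 ± 0.04 (edgeR adjusted p = 0.0048) were the 2 that were higher. Syvn1 passed as higher without double knockdown replicate 2 (0.18, edgeR adjusted p = 0.0041). With scaling by library size alone Syvn1 (0.15) and Derl1 (0.12) passed as higher. Canx passed as lower without double knockdown replicates 1 or 2 (-0.14 in each). Creld2 (-0.16) passed as lower without Btg2 knockdown replicate 2, and Chac1 (-0.29) without Btg1 knockdown replicate 2. Summed fibroblast markers were also lower in double than in Btg2 knockdowns, where 5 of the 10 markers were called lower and 2 higher, and their part in these differences was not tested.

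The design lets the effect of siBtg2 be compared with and without siBtg1 in 1 model. This interaction is the log2 change between double and Btg1 knockdowns minus that between Btg2 knockdowns and scramble. It passed for 9 of 37 genes, 5 below 0 and 4 above, which is 24.3%, against 15.1% of all genes (10.1% below, 4.99% above). With DESeq2 the split was 5 below and 6 above, and with scaling by library size alone 3 below and 7 above. With TMM scaling edgeR passed 0 chaperone genes, and 4 had an unadjusted p below 0.05. DESeq2 called Calr and Pdia6 as above 0. With scaling by library size alone edgeR called Calr (0.18, edgeR adjusted p = 0.025), Pdia6 (0.18, edgeR adjusted p = 0.019) and Dnajb11 (0.17, edgeR adjusted p = 0.041). Dnajb11 also passed without double knockdown replicate 3 (0.15, edgeR adjusted p = 0.044).

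Among the sensors Ern1 and Atf6 lay below 0. For Atf6 the log2 change with siBtg2 was -0.08 in the presence of siBtg1 and 0.26 in its absence, an interaction of -0.34 ± 0.08 (edgeR adjusted p = 0.0033). Ern1 showed -0.21 with siBtg1 and 0.15 without it, an interaction of -0.36 ± 0.09 (edgeR adjusted p = 0.01). For Vldlr the changes were -0.25 and 0.01, an interaction of -0.26 ± 0.05 (edgeR adjusted p = 0.0014). Sel1l and Edem1, both of the degradation arm, also lay below 0, at -0.20 ± 0.06 (edgeR adjusted p = 0.015) and -0.22 ± 0.06 (edgeR adjusted p = 0.016). Sel1l lost its call without scramble replicate 3, without Btg1 knockdown replicate 1, with scaling by library size alone or by limma on log2 TPM with either pseudocount (log2 change -0.18 to -0.17, adjusted p = 0.051 to 0.12), and Edem1 with scaling by library size alone or by limma on log2 TPM with either pseudocount (log2 change -0.20 to -0.19, adjusted p = 0.054 to 0.12).

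Atf5 lay the other way. Its change was 0.07 with siBtg1 and -0.26 without it, an interaction of 0.34 ± 0.05 (edgeR adjusted p = 5.2e-05). Phgdh and Herpud1 followed at 0.24 ± 0.06 (edgeR adjusted p = 0.011) and 0.23 ± 0.06 (edgeR adjusted p = 0.013). Ddit3 passed at 0.23 ± 0.07 (edgeR adjusted p = 0.031), a call lost without scramble replicates 1 or 2, without double knockdown replicate 2, without Btg1 knockdown replicates 1 or 3 or without Btg2 knockdown replicates 1 or 3 (log2 change 0.19 to 0.24, adjusted p = 0.054 to 0.1). For Dnajb9, Trib3 and Derl3, whose values were the most extreme in double knockdowns, the interaction did not pass. For Dnajb9 it was 0.08 ± 0.09 (edgeR adjusted p = 0.61) with a 95% interval of -0.10 to 0.26. For Trib3 it was -0.01 ± 0.12 (edgeR adjusted p = 0.98) with -0.27 to 0.26. For Derl3 it was 0.43, the highest of the degradation genes.

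**Figure D4:**
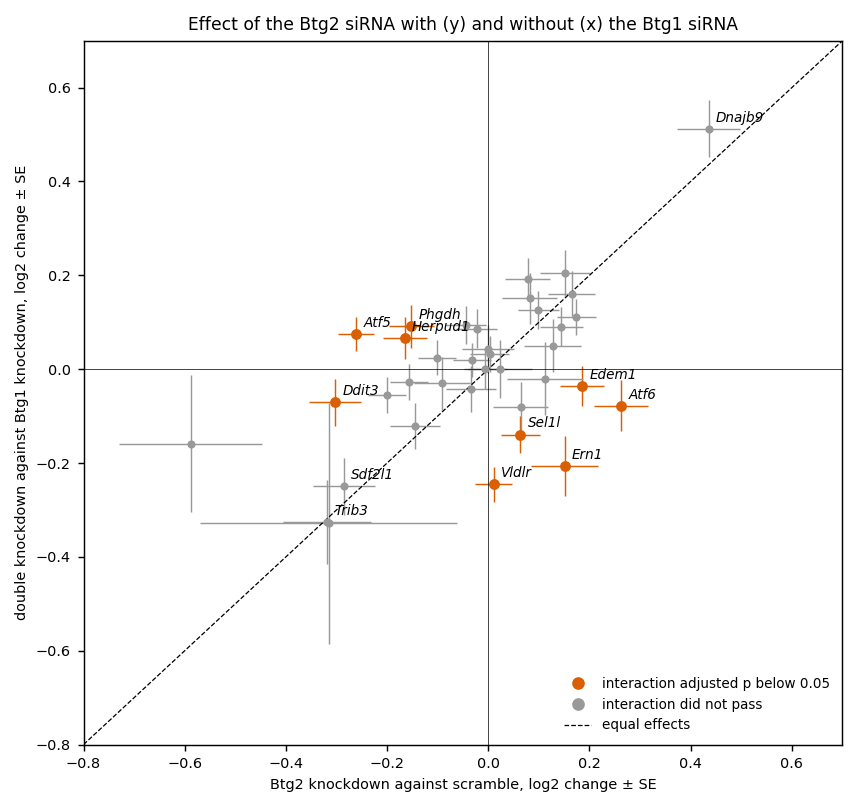
Log2 change ± SE of each gene between double and Btg1 knockdowns (vertical) against its change between Btg2 knockdowns and scramble (horizontal), so that genes on the dashed line have equal changes on siBtg2 with and without siBtg1. Orange genes passed the interaction: Atf6, Ern1, Edem1, Sel1l and Vldlr lie below the line and Atf5, Herpud1, Phgdh and Ddit3 above it.

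Other genes of the same pathways were read from lists that hold none of the 38, and their counts stand against the shares over all genes, 19.5% lower and 19.4% higher in double knockdowns, 17.8% and 18.7% in Btg1 knockdowns and 13.6% and 16.4% in Btg2 knockdowns. Of 21 tested genes of ER folding and translocation, 14 fell (66.7%) and 1 rose in double knockdowns, 10 fell (47.6%) and 0 rose in Btg1 knockdowns, and 8 fell (38.1%) and 2 rose in Btg2 knockdowns. DESeq2 and an unadjusted p below 0.05 also gave 0 rises in Btg1 knockdowns. In double knockdowns Fkbp2, an ER prolyl isomerase, changed by -0.79 ± 0.05 (edgeR adjusted p = 5.1e-11), Sil1, a BiP exchange factor, by -0.49 ± 0.06 (edgeR adjusted p = 1.1e-06) and Sec61a1, the translocon pore subunit, by -0.24 ± 0.03 (edgeR adjusted p = 4.6e-06). The list's median log2 change was -0.21 there, against -0.01 for all genes.

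Of 25 other ATF4 targets 14 fell (56%) and 2 rose in double knockdowns and 12 fell (48%) and 2 rose in Btg1 knockdowns. In Btg2 knockdowns 4 fell and 4 rose, 16% each, which is near the share over all genes. Slc7a5, the large neutral amino acid transporter, changed by -0.73 ± 0.05 (edgeR adjusted p = 3.2e-11) in double knockdowns and Slc1a5, the glutamine transporter, by -0.43 ± 0.06 (edgeR adjusted p = 1.4e-06). Atf3, a stress-induced repressor, went the other way at 0.63 ± 0.07 (edgeR adjusted p = 1.4e-07), and it was also higher in Btg1 knockdowns at 0.94 ± 0.07 (edgeR adjusted p = 4.6e-10) and in Btg2 knockdowns at 0.52 ± 0.07 (edgeR adjusted p = 5.3e-06).

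The aminoacyl-tRNA synthetases, which ATF4 also raises in part, gave 6 falls (33.3%) and 5 rises (27.8%) of 18 in double knockdowns, 10 falls (55.6%) and 1 rise in Btg1 knockdowns, and 0 falls and 2 rises in Btg2 knockdowns, where 3 had an unadjusted p below 0.05 as lower and DESeq2 called 1. Iars1 was at -0.31 ± 0.04 (edgeR adjusted p = 8.7e-07), Kars at 0.28 ± 0.04 (edgeR adjusted p = 1.6e-06) and Rars1 at 0.18 ± 0.04 (edgeR adjusted p = 0.00066) in double knockdowns. Other degradation genes were mixed, with 4 falls (20%, near the share over all genes) and 6 rises (30%) of 20 in double knockdowns, 5 falls and 2 rises in Btg1 knockdowns and 2 falls and 5 rises in Btg2 knockdowns. In double knockdowns Os9, a lectin that delivers glycoproteins to the HRD1 complex, was lower, at -0.44 ± 0.04 (edgeR adjusted p = 4.1e-09), while its relative Erlec1 rose by 0.36 ± 0.06 (edgeR adjusted p = 3.0e-05) and Nploc4, a cofactor of the p97 ATPase, by 0.22 ± 0.04 (edgeR adjusted p = 6.3e-05).

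Of 10 genes of eIF2 and its kinases, phosphatases and exchange factor, 2 fell (20%, near the share over all genes) and 3 rose (30%) in double knockdowns, 1 fell and 1 rose in Btg1 knockdowns, and 1 fell and 2 rose in Btg2 knockdowns. In double knockdowns Eif2ak2 (PKR), the kinase activated by double-stranded RNA, was at 0.32 ± 0.06 (edgeR adjusted p = 0.00066), the eIF2B subunit gene Eif2b4 at 0.29 ± 0.05 (edgeR adjusted p = 2.4e-05) and the constitutive phosphatase subunit gene Ppp1r15b at -0.19 ± 0.04 (edgeR adjusted p = 0.0014). The list of ATF6 processing and the related CREB3 family also holds Traf2, Tmbim6 and Bloc1s1, which belong to neither. Of its 9 tested genes 3 fell (33.3%), Traf2 among them, and 0 rose in double knockdowns. DESeq2 and an unadjusted p below 0.05 also gave 0 rises there. In Btg1 knockdowns 4 fell and 0 rose, with 0 rises by DESeq2 and 1 at an unadjusted p below 0.05, and in Btg2 knockdowns 2 fell and 3 rose. Mbtps2 (site-2 protease) and Mbtps1 (site-1 protease), which cut ATF6, changed by -0.60 ± 0.11 (edgeR adjusted p = 0.00014) and -0.11 ± 0.04 (edgeR adjusted p = 0.019) in double knockdowns, and Traf2, an IRE1 adaptor, by -0.18 ± 0.05 (edgeR adjusted p = 0.0057). In Btg2 knockdowns Mbtps2 was at 0.30 ± 0.10 (edgeR adjusted p = 0.035).

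Cytosolic and mitochondrial heat shock genes, many of which HSF1 is known to control, gave 5 rises (33.3%) and 0 falls of 15 in double knockdowns, 1 rise and 1 fall in Btg1 knockdowns, and 5 rises and 0 falls in Btg2 knockdowns. DESeq2 and an unadjusted p below 0.05 also gave 0 falls in double and Btg2 knockdowns. In double knockdowns Hspd1 was at 0.30 ± 0.04 (edgeR adjusted p = 5.7e-06), Dnaja1 at 0.28 ± 0.05 (edgeR adjusted p = 0.00033) and Hspa8 at 0.25 ± 0.05 (edgeR adjusted p = 0.00067). In the ER membrane complex, which inserts membrane proteins, 8 of 10 genes did not pass in double knockdowns. Emc4 was lower, at -1.75 ± 0.06 (edgeR adjusted p = 1.1e-16) and Emc1 rose by 0.63 ± 0.04 (edgeR adjusted p = 2.1e-11). In Btg1 knockdowns 1 of the 10 fell and 1 rose (10% each), and the lowest log2 change in the list was -1.64. In Btg2 knockdowns 0 fell and 2 rose (20%), and the lowest log2 change was -0.17. There DESeq2 also gave 0 falls, and 4 genes had an unadjusted p below 0.05 as lower. Of 11 secreted matrix genes, a large cargo of the ER in fibroblasts, 8 fell in double knockdowns and 8 in Btg1 knockdowns (72.7% each), and none rose in either by edgeR, by DESeq2 or at an unadjusted p below 0.05. In Btg2 knockdowns 2 fell and 3 rose. Col6a2 was at -0.47 ± 0.05 (edgeR adjusted p = 9.6e-07), Col1a2 at -0.31 ± 0.05 (edgeR adjusted p = 4.3e-05) and Col1a1 at -0.32 ± 0.06 (edgeR adjusted p = 7.4e-05) in double knockdowns. Col1a1, Col1a2, Col3a1 and Postn stand in both this list and that of fibroblast markers, so these lists are not independent. The part that matrix-producing cells had in the falls of ER folding genes was not tested.

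**Figure D5:**
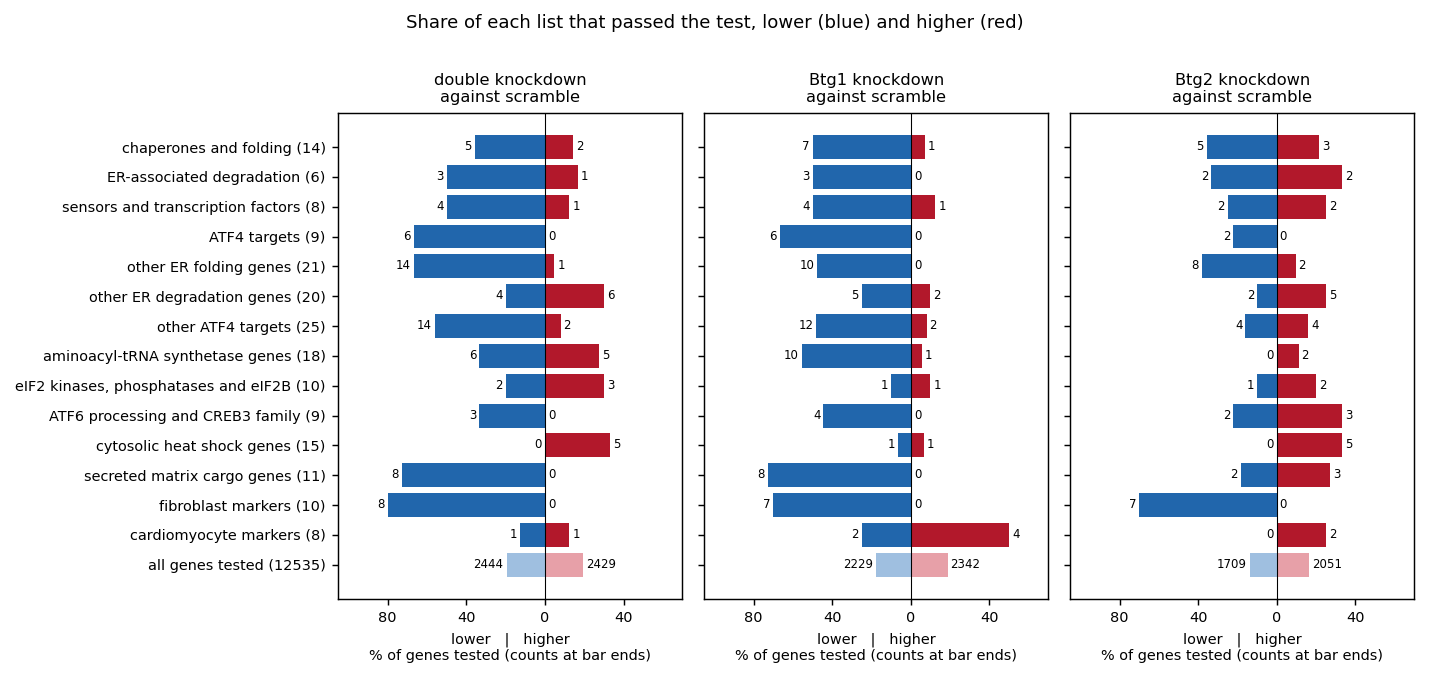
Share of the tested genes of each list that passed edgeR's adjusted p of 0.05 as lower (blue, left) or higher (red, right) in double, Btg1 and Btg2 knockdowns against scramble, with counts at the bar ends and all genes tested in the lowest bars. ATF4 targets, other ER folding genes, matrix genes and fibroblast markers lean to falls in double knockdowns, with 6 of 9, 14 of 21, 8 of 11 and 8 of 10 genes lower. The lists of matrix genes and fibroblast markers share Col1a1, Col1a2, Col3a1 and Postn.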

How the data were processed

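For each of 12 libraries the authors deposited unnormalised read counts and TPM for 17419 gene symbols. Per the submitters' processing notes, FastQC, Trim Galore, cutadapt, STAR and featureCounts were used with the rat build rn5. Versions, annotation and strand setting were not given in the sources used here. Per the labels' protocols, RNA was amplified before library making and no molecular identifiers are mentioned, so reads are not independent molecules. Deposited TPM followed counts over a fixed length within 0.332% in 5913 genes.

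Counts were fitted with edgeR 4.0.16 (R 4.3.3, limma 3.58.1), quasi-likelihood with robust dispersions, TMM factors of 0.971 to 1.02, 12 libraries, 1 mean per group, 8 residual degrees of freedom, and 4884 genes removed by filterByExpr. P-values were adjusted by Benjamini-Hochberg over 12535 genes and called at 0.05. The common biological coefficient of variation was 4.97%, and 1 count was worth 0.0213 to 0.0422 CPM. No replicates agreed within sampling noise (chi-square per degree of freedom 4.07 to 25.7). In counts simulated for double knockdown against scramble over 12535 genes, the test recovered 60 of 66 planted 2-fold changes, 56 of 67 planted at 1.5-fold and 32 of 67 planted at 1.2-fold, and 7 of its 155 calls were false. Only these changes were planted, and each gene was given the trended spread for its level, not its own spread. In the real counts 38.9% of genes were called in this comparison, so these rates need not hold there.

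Values per library were printed for Hspa5, Dnajb9, Xbp1, Atf4 and Ddit3, and for genes called with a log2 change of at least 0.3 in double or Btg1 knockdowns, at least 0.2 in Btg2 knockdowns, or in the interaction. Chac1 was added after its values were seen. Of other lists up to 3 called genes with the smallest p in double knockdowns were named, and further values of Atf3 and Mbtps2 were added after they were seen. The genes, lists and tests were chosen with earlier results of these data known. As alternatives the counts were refitted with DESeq2 1.42.0, with RLE or plain library-size scaling, without a filter, with a filter of 1 CPM in 6 libraries, with only the compared groups, with the replicate number as a block and with each library left out. Deposited TPM were refitted with limma after adding 1 or 0.1 and taking log2. Promoter sequences are RefSeq's (GRCr8), and no coordinate was carried between builds. Protein sequences were not used here.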

Additional observations from a re-analysis of the deposited data

Results flagged for a closer look

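The response to siBtg2 was called different between cultures with and without siBtg1 in 9 of the 37 genes by edgeR's test of that difference, which 15.1% of all genes passed. Its value on the log2 scale was -0.34 ± 0.08 (edgeR adjusted p = 0.0033) for Atf6, -0.36 ± 0.09 (edgeR adjusted p = 0.01) for Ern1, -0.26 ± 0.05 (edgeR adjusted p = 0.0014) for Vldlr, -0.22 ± 0.06 (edgeR adjusted p = 0.016) for Edem1 and -0.20 ± 0.06 (edgeR adjusted p = 0.015) for Sel1l. It was 0.34 ± 0.05 (edgeR adjusted p = 5.2e-05) for Atf5, 0.24 ± 0.06 (edgeR adjusted p = 0.011) for Phgdh, 0.23 ± 0.07 (edgeR adjusted p = 0.031) for Ddit3 and 0.23 ± 0.06 (edgeR adjusted p = 0.013) for Herpud1. The Ddit3 call was lost in 7 of the 12 fits without 1 library, that of Sel1l in 2 of them, and those of Sel1l and Edem1 with scaling by library size alone and by limma on log2 TPM. The Btg1 transcript itself showed an interaction of -0.44 ± 0.06 (edgeR adjusted p = 2.9e-05). The Btg2 transcript also showed an interaction of -0.65 ± 0.06 (edgeR adjusted p = 1.4e-07): siBtg2 changed it by -1.35 with siBtg1 and by -0.70 without it, and the part of both in these results was not tested.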

How the results depend on the processing

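No called change of the 37 genes turned its direction. Over the 37 genes and 6 comparisons 2571 of 2664 values kept their side of the threshold when 1 library was left out, 71 lost it and 22 gained it, and 1892 of 1961 kept it under the other alternatives, 49 lost it and 20 gained it. Genes called in double against Btg1 knockdowns numbered 11, and 7 with limma on log2(TPM + 1), 7 with limma on log2(TPM + 0.1) and 7 without Btg1 knockdown replicate 1. With 1 library left out the counts ran from 19 to 23 in double knockdowns against scramble, 20 to 24 in Btg1 and 13 to 18 in Btg2 knockdowns against scramble, 7 to 14 in double against Btg1 knockdowns, 14 to 19 in double against Btg2 knockdowns and 7 to 10 in the interaction. The causes were not tested. Depth limits Derl3 most, at 4.26 ± 0.818 CPM in double knockdowns and 7.30 ± 1.09 CPM in scramble cultures.

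No pairing by replicate number was seen over all genes tested, which does not exclude it for single genes. Same-numbered libraries' deviations correlated at -0.092 to 0.060 over 18 pairs, 0 of them above 0.1, and 5 of 12 libraries correlated best with their own number. With the replicate block the counts were 23, 22 and 17 in double, Btg1 and Btg2 knockdowns against scramble, 10 and 17 in double against Btg1 and Btg2 knockdowns, and 9 in the interaction. With the block Chac1 passed in double knockdowns (-0.62, edgeR adjusted p = 0.046), and Pdia4 in Btg2 knockdowns and Xbp1 in double against Btg1 knockdowns did not.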
